A study of Mus musculus with 32 samples.

Results

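Potassium channels set the membrane potential of microglia, the resident macrophages of the brain, and 7 genes that encode such channels in these cells were examined. They were Kcnk13 and Kcnk6 (two-pore channels), Kcnj2 (an inward rectifier), Kcna3 and Kcnd1 (voltage-gated channels) and Kcnn4 and Kcnma1 (calcium-activated channels). The genes were taken from a list of microglial potassium channels by gene symbol, and all 7 were among the 18588 genes of the table. Their signals were compared between rTg4510 and wild type (WT) female mice of 2, 4, 6 and 8 months.

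RNA was sequenced from microglia captured from forebrain with magnetic beads against CD11b, a surface integrin of myeloid cells, and 8 to 10 forebrains were combined for each library. The rTg4510 mice carry human tau with the P301L mutation behind a tetracycline-responsive promoter, together with a tetracycline transactivator driven by the CaMKIIα promoter, which drives expression in forebrain neurons. The WT mice were littermates without either transgene, labelled as strain 129/FVB F1. Of the 32 libraries, the 28 that passed the quality control of the authors were analysed, with n = 4 per genotype at 2 and 6 months and n = 3 at 4 and 8 months. Values are log2 gene signals that were scaled to a common median of 5.63 in each library. They are not divided by gene length, so levels are compared between libraries and not between genes, and the table gives no read totals, although the methods of the study name 1 approximate depth for all samples.

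Microglia rest at a negative potential that two-pore channels hold by a steady outward leak of potassium. Kcnk13 encodes THIK-1, the main leak channel of ramified microglia, which the ADP receptor P2Y12 opens and which takes part in the surveillance of tissue and in the release of interleukin-1β. Activated microglia in culture are known for 2 further currents, an inwardly rectifying current carried by Kir2.1 (Kcnj2) and a delayed outward rectifier carried by Kv1.3 (Kcna3). The calcium-activated channels KCa3.1 (Kcnn4) and BK (Kcnma1) keep the cell negative while calcium flows in.

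Kcnj2 and Kcna3 were higher in rTg4510 microglia, Kcnn4 rose at the middle ages and Kcnd1 was lower at the last age. Kcnma1 was higher at 2 and 4 months by under 1.5 fold, and Kcnk13 and Kcnk6 did not pass the test at any age. A gene was called a differentially expressed gene (DEG) at a false discovery rate (FDR) under 0.05 in the limma model with a change above 1.5 fold. At 2 months 1 of the 7 genes was a DEG (Kcnj2), where 1.98% of all genes were DEGs and 1.58% were up-regulated ones. At 4 months the DEGs were Kcnj2, Kcna3 and Kcnn4, 3 of 7 and all higher, against 13.8% of all genes, or 9.47% counting up-regulated genes alone. At 6 months the same 3 genes were up-regulated while 19.8% of all genes were DEGs and 11.3% were up-regulated. At 8 months Kcnj2 and Kcna3 were up-regulated and Kcnd1 was down-regulated, against 15.9% of all genes, with 10.5% higher and 5.37% lower. The median log2 fold change of the 7 genes was 0.08, 0.44, 0.06 and 0.17 at the 4 ages, against 0.01, -0.04, -0.04 and -0.01 over all genes.

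**Figure D1:**
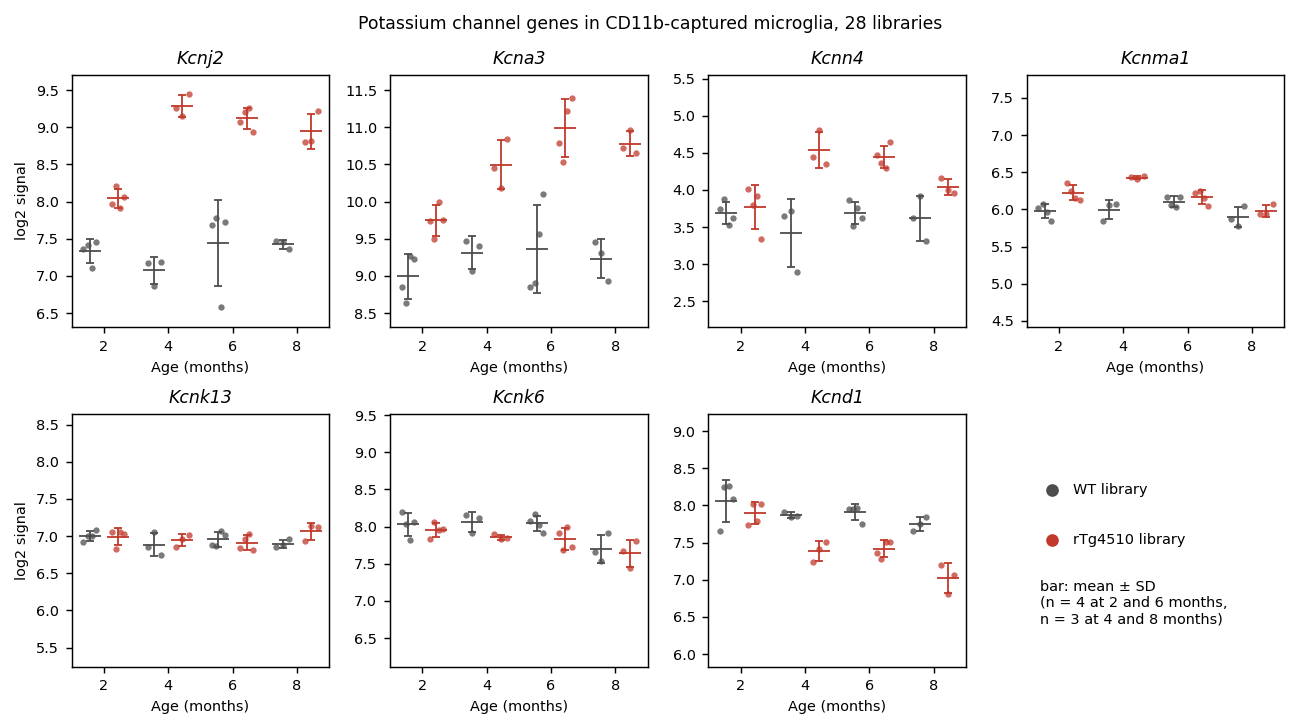
Log2 signal (vertical axis, each panel spanning the same range of log2 units) of the 7 potassium channel genes by age in months, with 1 point per library and bars for the group mean ± SD (n = 4 at 2 and 6 months, n = 3 at 4 and 8 months). Every rTg4510 point of Kcnj2 and Kcna3 lies above the WT points of the same age, the Kcnd1 points lie below from 4 months on, and the Kcnk13 points of the genotypes overlap at every age.

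The 250 bases in front of the RefSeq start are shown for the genes with the largest change, Kcnj2 and Kcna3, and for Kcnk13, which did not pass the test at any age. Capitals mark matches on either strand to the motifs searched, which were GAGGAA (a core of PU.1 sites), TGANTCA (AP-1), GGGCGG (the GC box), CACGTG (the E-box), CCAAT and TATAAA. Sequences are from RefSeq on GRCm38.p6, which gave a window for 5 of the 7 genes. The Kcnj2 and Kcna3 windows end 1 base before the annotated gene, whereas the Kcnk13 window lies inside the annotated span of its gene, in front of a start further downstream.
Kcnj2, chr11:111065914-111066163, + strand: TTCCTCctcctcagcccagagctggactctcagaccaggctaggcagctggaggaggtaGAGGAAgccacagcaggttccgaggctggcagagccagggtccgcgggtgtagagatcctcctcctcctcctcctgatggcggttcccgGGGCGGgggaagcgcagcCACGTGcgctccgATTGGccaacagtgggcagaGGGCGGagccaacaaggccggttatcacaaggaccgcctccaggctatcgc
Kcna3, chr3:107035912-107036161, + strand: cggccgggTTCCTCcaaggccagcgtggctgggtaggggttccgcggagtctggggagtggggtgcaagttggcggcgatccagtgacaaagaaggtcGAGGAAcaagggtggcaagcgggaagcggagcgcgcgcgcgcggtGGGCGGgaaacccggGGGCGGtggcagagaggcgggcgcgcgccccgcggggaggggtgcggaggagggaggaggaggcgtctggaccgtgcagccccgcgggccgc
Kcnk13, chr12:99964249-99964498, + strand: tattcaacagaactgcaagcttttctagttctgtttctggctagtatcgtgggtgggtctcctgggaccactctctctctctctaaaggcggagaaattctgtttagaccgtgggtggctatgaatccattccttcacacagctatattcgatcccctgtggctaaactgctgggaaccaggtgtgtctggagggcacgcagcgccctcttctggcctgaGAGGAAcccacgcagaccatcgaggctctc

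The Kcnj2 and Kcna3 windows each held 2 matches to GAGGAA and 2 to GGGCGG, and the Kcnk13 window held 1 match to GAGGAA. Among 32851 windows of the same length, 23.3% held GAGGAA and 32.7% held GGGCGG. Kcnj2 also had 1 match each to CACGTG, found in 6.02% of all windows, and to CCAAT, found in 33.8%. No match to TGANTCA or TATAAA was present in the 3 windows, and 6.75% and 12.4% of all windows had one. The windows of Kcna3 and Kcnj2 were 74.4% and 65.6% G and C, that of Kcnk13 was 52.8%, and the median window was 52.4%. The matches describe letters and were not tested as binding sites.

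Kcnj2 (Entrez 16518, chr11:111066164-111076825 in GRCm38.p6) encodes Kir2.1, a strong inward rectifier that passes potassium near the resting potential. At 2 months its log2 signal was 7.97, 8.22, 7.92 and 8.07 in rTg4510 and 7.36, 7.42, 7.11 and 7.46 in WT. At 4 months the signal reached 9.26, 9.15 and 9.44 in rTg4510 against 7.17, 6.86 and 7.19 in WT. Every rTg4510 library was thus above every WT library at both ages, with a wider gap at 4 months. The 6-month libraries gave 9.07, 9.21, 9.26 and 8.94 in rTg4510 and 7.68, 7.78, 6.58 and 7.72 in WT. By 8 months the values were 8.81, 8.82 and 9.22 against 7.47, 7.46 and 7.36. The genotypes again did not overlap, and 1 WT library at 6 months, replicate 3, stood far below its group.

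The log2 fold change of Kcnj2 between genotypes was 0.70 ± 0.188 (SE) at 2 months (FDR = 0.0267, 1.63 fold). It was 2.21 ± 0.218 at 4 months (FDR = 1.27e-07, 4.62 fold), 1.68 ± 0.188 at 6 months (FDR = 3.68e-07, 3.2 fold) and 1.52 ± 0.218 at 8 months (FDR = 1.35e-05, 2.87 fold). Kcnj2 was thus up-regulated at every age, but the call at 2 months was the least firm. It was lost when rTg4510 replicate 1, 2 or 4 or WT replicate 3 of that age was left out, at FDR between 0.0517 and 0.0961. The call was also lost with all 32 libraries (FDR = 0.203) and with same-numbered libraries of an age taken as pairs (FDR = 0.0752). The genotype difference grew by 1.5 ± 0.288 between 2 and 4 months (FDR = 0.00232), a test that 2 of the 7 genes and 4.66% of all genes passed. In rTg4510 microglia alone Kcnj2 rose by 1.24 ± 0.204 from 2 to 4 months (FDR = 0.000236), where again 2 of the 7 genes were DEGs, against 6.39% of all genes. From 4 to 8 months the rTg4510 signal differed by -0.34 ± 0.218 (FDR = 0.415). The means of rTg4510 microglia ran in the order 4, 6, 8 and 2 months, 9.28 ± 0.147 (SD, n = 3), 9.12 ± 0.145 (SD, n = 4), 8.95 ± 0.236 (SD, n = 3) and 8.04 ± 0.132 (SD, n = 4). The ranges of the first 3 groups overlapped and that of 2 months lay below them. In WT the means ranged between 7.08 ± 0.184 at 4 months (SD, n = 3) and 7.44 ± 0.577 at 6 months (SD, n = 4), and the change from 2 to 8 months was 0.09 ± 0.204 (FDR = 0.861). None of the 7 genes was a DEG between these WT ages, where 1.27% of all genes were.

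Kcna3 (Entrez 16491, chr3:107036162-107038129) encodes Kv1.3, the delayed rectifier of activated microglia and of T lymphocytes. At 2 months the signal was 9.75, 9.49, 10 and 9.76 in rTg4510 and 8.86, 8.63, 9.27 and 9.22 in WT. The 4-month values were 10.46, 10.18 and 10.84 against 9.47, 9.06 and 9.40. At both ages the lowest rTg4510 library was above the highest WT library. At 6 months the signal was 10.80, 10.54, 11.22 and 11.39 in rTg4510 and 8.86, 8.91, 9.57 and 10.10 in WT. The 8-month libraries gave 10.72, 10.97 and 10.65 against 9.45, 9.31 and 8.94. Once more the genotypes did not overlap, although the 6-month WT libraries spread over more than the other WT groups.

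Kcna3 differed by 0.75 ± 0.246 at 2 months (1.69 fold), which missed the threshold with FDR = 0.082. With same-numbered libraries of an age taken as pairs, the 2-month difference of Kcna3 was called (FDR = 0.00413). It was up-regulated by 1.18 ± 0.284 at 4 months (FDR = 0.00374, 2.27 fold), by 1.63 ± 0.246 at 6 months (FDR = 2.05e-05, 3.09 fold) and by 1.55 ± 0.284 at 8 months (FDR = 0.000257, 2.92 fold). With only the 2 groups of 4 months in the fit, the same Kcna3 difference had FDR = 0.0535. The growth of the difference from 2 to 4 months was 0.43 ± 0.376 (FDR = 0.599), with a 95% interval of -0.36 to 1.21, which holds changes of either sign. Within rTg4510 the 4-month libraries were 0.75 ± 0.266 above those of 2 months (FDR = 0.0644), a contrast that was called with all 32 libraries (0.93, FDR = 0.0193). The means of rTg4510 ran from 9.75 ± 0.206 at 2 months (SD, n = 4) through 10.49 ± 0.330 at 4 months (SD, n = 3) and 10.78 ± 0.168 at 8 months (SD, n = 3) to 10.99 ± 0.389 at 6 months (SD, n = 4). The ranges at 4, 6 and 8 months overlapped. The WT means lay between 8.99 ± 0.304 at 2 months (SD, n = 4) and 9.36 ± 0.591 at 6 months (SD, n = 4), and differed by 0.24 ± 0.266 between 2 and 8 months (FDR = 0.685).

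Kcnn4 (Entrez 16534, chr7:24369826-24385212) encodes KCa3.1, a channel of intermediate conductance that calmodulin opens when calcium rises. Its signal was low in these libraries, and 13.3% of all genes had a lower mean. At 2 months it was 4.01, 3.80, 3.92 and 3.34 in rTg4510 and 3.74, 3.88, 3.53 and 3.62 in WT. The genotypes overlapped at this age, and the fold change was 0.08 ± 0.175 (FDR = 0.908). At 4 months the values were 4.45, 4.81 and 4.35 against 3.65, 3.72 and 2.90. At 6 months they were 4.47, 4.37, 4.29 and 4.64 against 3.86, 3.51, 3.76 and 3.62. The genotypes separated at both ages, and the difference was 1.11 ± 0.202 at 4 months (FDR = 0.000276, 2.16 fold) and 0.75 ± 0.175 at 6 months (FDR = 0.00194, 1.69 fold). The 4-month call was lost with only its 2 groups in the fit (FDR = 0.105), and the 6-month call was lost, at 0.51, when 8 linear units were added before the log2, which shrinks the differences of low signals.

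By 8 months the Kcnn4 signal was 4.16, 3.99 and 3.96 in rTg4510 and 3.62, 3.92 and 3.31 in WT. The rTg4510 libraries were still above those of WT, but the difference of 0.42 ± 0.202 did not pass (FDR = 0.144). The genotype difference grew by 1.04 ± 0.267 from 2 to 4 months (FDR = 0.0201). That call was lost without rTg4510 replicate 2 of 4 months (0.90, FDR = 0.0687) or WT replicate 4 of 4 months (0.77, FDR = 0.0719), the library at 2.90, and with all 32 libraries (1.01, FDR = 0.101). In rTg4510 alone Kcnn4 rose by 0.77 ± 0.189 between 2 and 4 months (FDR = 0.00783), and not past the threshold without replicate 2 of 4 months (0.63, FDR = 0.0598). The means of rTg4510 were 3.77 ± 0.299 at 2 months (SD, n = 4), 4.54 ± 0.244 at 4 months (SD, n = 3), 4.44 ± 0.154 at 6 months (SD, n = 4) and 4.04 ± 0.105 at 8 months (SD, n = 3). The fall of 0.50 from 4 to 8 months had an FDR of 0.17, in a contrast where none of the 7 genes and 2.32% of all genes were DEGs.

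Kcnma1 (Entrez 16531, chr14:23292288-24005110) encodes the pore of the BK channel, which opens with both calcium and depolarization. The signal at 2 months was 6.36, 6.25, 6.16 and 6.13 in rTg4510 and 6.02, 6.07, 5.96 and 5.85 in WT. At 4 months it was 6.43, 6.41 and 6.45 against 5.85, 6.06 and 6.07. The genotypes did not overlap at these ages, and rTg4510 was higher by 0.25 ± 0.0672 (FDR = 0.0289, 1.19 fold) and by 0.44 ± 0.0776 (FDR = 0.000215, 1.35 fold), under the limit of 1.5 fold for a DEG. At 6 months the libraries gave 6.22, 6.25, 6.15 and 6.04 against 6.16, 6.06, 6.03 and 6.16. At 8 months they gave 5.93, 5.93 and 6.07 against 5.88, 5.78 and 6.04. The genotypes overlapped at both later ages, with differences of 0.06 ± 0.0672 (95% interval -0.08 to 0.20) and 0.08 ± 0.0776 (95% interval -0.08 to 0.24). The genotype difference changed by -0.37 ± 0.103 from 4 to 6 months (FDR = 0.214), in a test that none of the 7 genes and 0.156% of all genes passed. In rTg4510 the signal fell by 0.45 from 4 to 8 months (SE 0.0776, FDR = 0.00167, 1.37 fold).

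**Figure D2:**
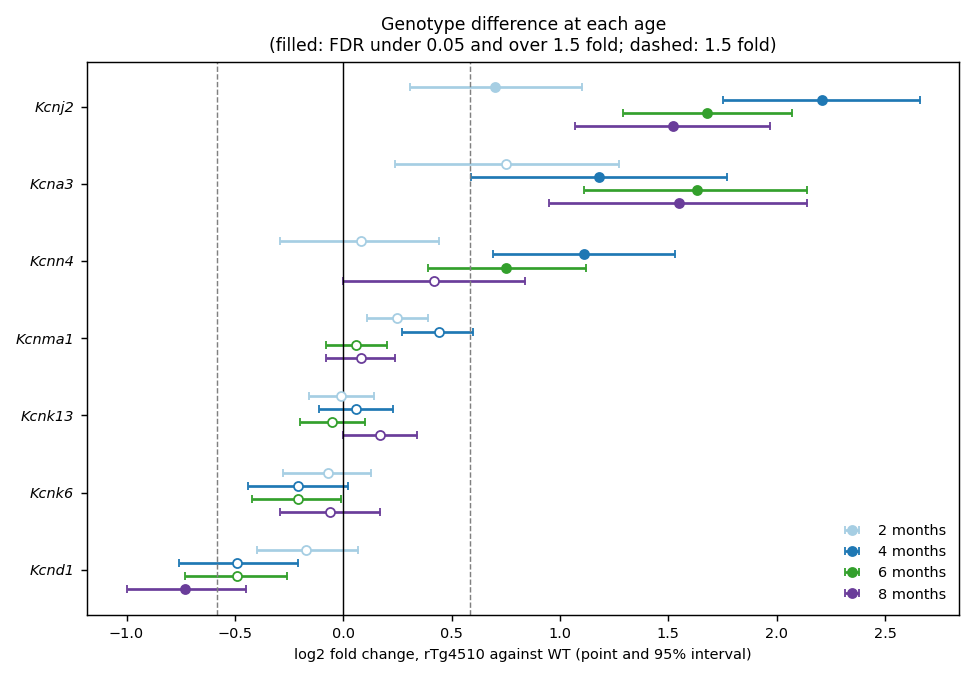
Log2 fold change of rTg4510 against WT (horizontal axis) for each of the 7 genes at 2, 4, 6 and 8 months, with the 95% interval from the limma model, filled points for DEGs and dashed lines at 1.5 fold. The Kcnj2 point moves from 0.70 at 2 months to 2.21 at 4 months, the Kcnd1 points run from -0.17 to -0.73 with age, and the Kcnk13 and Kcnk6 intervals stay within the dashed lines.

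Kcnd1 (Entrez 16506, chrX:7823759-7838278) encodes Kv4.1, a channel that gives a transient A-type outward current. At 2 months its signal was 7.74, 8.02, 7.79 and 8.02 in rTg4510 and 7.65, 8.25, 8.26 and 8.08 in WT. These overlapped, with a difference of -0.17 ± 0.113 (FDR = 0.529). At 4 months the values were 7.23, 7.41 and 7.5 against 7.92, 7.84 and 7.86. At 6 months they were 7.36, 7.28, 7.51 and 7.51 against 7.96, 7.95, 7.97 and 7.75. At 8 months they were 7.20, 6.81 and 7.06 against 7.66, 7.75 and 7.84. From 4 months on every rTg4510 library lay below every WT library of its age. The differences of -0.49 ± 0.131 at 4 months (FDR = 0.00881, 1.4 fold) and -0.49 ± 0.113 at 6 months (FDR = 0.00176, 1.41 fold) passed the FDR but not the fold limit. They were called with all 32 libraries at 4 months (-0.70, FDR = 0.0144) and with quantile normalization at 6 months (-0.59, FDR = 0.000176). At 8 months Kcnd1 was a down-regulated DEG, at -0.73 ± 0.131 (FDR = 0.000205, 1.66 fold), as were 5.37% of all genes. It was the only one of the 7 genes called lower at any age. In rTg4510 it fell by 0.51 from 2 to 4 months (SE 0.122, FDR = 0.00656, 1.42 fold). WT microglia differed by -0.31 ± 0.122 between 2 and 8 months (FDR = 0.163). The step of the genotype difference from 2 to 4 months was -0.32 ± 0.173 (FDR = 0.329).

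Kcnk13 (Entrez 217826, chr12:99963149-100062682) encodes the leak channel THIK-1 and had the narrowest range of the 7 genes, between 6.75 and 7.14 over the 28 libraries. The rTg4510 libraries ran from 6.81 to 7.14, with a median of 6.99, and those of WT from 6.75 to 7.08, with a median of 6.94. Group means lay between 6.88 ± 0.153 (SD, n = 3) in WT at 4 months and 7.06 ± 0.117 (SD, n = 3) in rTg4510 at 8 months. The genotype difference was -0.01 ± 0.0719, 0.06 ± 0.083, -0.05 ± 0.0719 and 0.17 ± 0.083 at 2, 4, 6 and 8 months. None passed, with FDR = 0.981, 0.66, 0.641 and 0.151, and the genotypes overlapped at each age. The 95% intervals were -0.16 to 0.14, -0.11 to 0.23, -0.20 to 0.10 and 0.00 to 0.34, so a change of 1.5 fold lay outside all of them. Averaged over ages the difference was 0.04 ± 0.0388 (FDR = 0.376). The spread within groups, a residual SD of 0.102, was smaller than that of most genes, and 9.18% of genes had a smaller one.

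Kcnk6 (Entrez 52150, chr7:29221928-29232522) encodes TWIK-2, a two-pore channel for which potassium efflux upstream of the NLRP3 inflammasome in macrophages is described. The rTg4510 libraries ran from 7.44 to 8.06, with a median of 7.84, and the WT libraries from 7.53 to 8.19, with a median of 8.03. At 4 months 7.89, 7.83 and 7.84 in rTg4510 lay below 8.16, 7.91 and 8.12 in WT, and at the other ages the genotypes overlapped. The difference was -0.07 ± 0.0963, -0.21 ± 0.111, -0.21 ± 0.0963 and -0.06 ± 0.111 at the 4 ages, with FDR = 0.801, 0.196, 0.0928 and 0.744. No interval reached 1.5 fold, the one farthest from 0 running from -0.44 to 0.02 at 4 months. The mean over the 4 ages was -0.14 ± 0.052 (FDR = 0.033, 1.1 fold). Both genotypes had their lowest means at 8 months, 7.64 ± 0.182 (SD, n = 3) in rTg4510 and 7.70 ± 0.190 (SD, n = 3) in WT, and the WT change from 2 to 8 months was -0.33 ± 0.104 (FDR = 0.0775).

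Averaged over the 4 ages, the difference was 1.53 ± 0.102 for Kcnj2 (FDR = 5.62e-11), 1.28 ± 0.133 for Kcna3 (FDR = 6.75e-08) and 0.59 ± 0.0945 for Kcnn4 (FDR = 2.58e-05, 1.51 fold). These were 3 of 7 DEGs in that contrast, against 16.5% of all genes, and the Kcnn4 value was so near the fold limit that leaving out any 1 of 11 libraries ended its call, as did all 32 libraries (0.57) and the 8 added units (0.39). Kcnd1 (-0.47 ± 0.0612, FDR = 1.78e-06, 1.38 fold) and Kcnma1 (0.21 ± 0.0363, FDR = 7.66e-05, 1.15 fold) passed the FDR but not the fold limit. The same held for Kcnk6 (-0.14 ± 0.052, FDR = 0.033, 1.1 fold). The genotypes did not overlap for 3 of 7 genes at 2 months, where 11% of all genes did not overlap. At 4 months this held for 6 of 7 genes (36.6% of all genes), at 6 months for 4 (32.8%) and at 8 months for 4 (36.7%). The exact permutation test of a single gene, two-sided, cannot go below 0.0286 with 4 against 4 libraries or 0.1 with 3 against 3. With these floors no adjusted p over the 28 such tests could fall under 0.05, whatever the values. The lowest was 0.114, and nothing is concluded from this test. Between 6 and 8 months no genotype difference changed past the threshold for the 7 genes or for any gene. Before adjustment 841 of 18588 genes had p under 0.05 in the limma model, a share below the 0.05 that chance alone gives.

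Over the 28 libraries the log2 signals of Kcnj2 and Kcna3 ran together (Pearson r = 0.838), and both ran against Kcnd1 (r = -0.759 and -0.771). The libraries share genotype and age, and after the group means were removed the same values were -0.166, -0.0456 and -0.0714. The protein-coding genes most like Kcnj2 over the 28 libraries were Dnajb14 (r = 0.958), Dna2 (r = 0.953) and Gnas (r = 0.953). For Kcna3 they were Tcim (r = 0.959), Tnfaip3 (r = 0.948) and C3ar1 (r = 0.947), and for Kcnd1 they were Adgrg1 (r = 0.921), Cmtm7 (r = 0.919) and Ulk2 (r = 0.917). Kcnn4 was most like Ch25h (r = 0.878), Capn1 (r = 0.868) and Milr1 (r = 0.859), and Kcnma1 was most like Pole2 (r = 0.787), Eif1ad (r = 0.764) and Chn2 (r = 0.756). Likeness was lower for Kcnk6, with F11r (r = 0.764), Tbk1 (r = 0.758) and Alkal2 (r = 0.750), and lowest for Kcnk13, with Trex1 (r = 0.637), Mpdu1 (r = 0.617) and Klf16 (r = 0.578).

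The microglial markers were abundant in each library: Cx3cr1 lay between 13.02 and 14.05, P2ry12 between 10.06 and 11.06, and Tmem119 between 10.62 and 11.92. Of the 8 microglial markers, none was a DEG at 2 months and 1 was lower at 4 months. At 6 months 1 was higher and 2 lower, and at 8 months 1 was higher and 1 lower. Of all genes 1.98%, 13.8%, 19.8% and 15.9% were DEGs at these ages. A marker that was not called was not thereby unchanged. Cx3cr1 at 8 months was 13.02 to 13.21 in rTg4510 and 13.49 to 13.79 in WT. Aif1 went the other way, at 6.15 to 6.44 against 5.85 to 6.06. At that age 36.7% of all genes did not overlap. Tmem119 was lower in rTg4510 by -0.74, -0.78 and -0.72 at 4, 6 and 8 months (FDR = 7.75e-05, 3.86e-06 and 7.88e-05). Itgam, which encodes the captured antigen CD11b, was lower by -0.62 at 6 months (FDR = 8.7e-09), and C1qa was higher by 0.70 and 0.73 at 6 and 8 months (FDR = 8.38e-05 and 0.000331). The log2 of the summed signal of 8 microglial markers was 14.47 to 14.93 in rTg4510 and 14.71 to 15.18 in WT over all ages. Within an age these sums overlapped at 2 months only. They were 14.67 to 14.77 in rTg4510 against 14.85 to 15.07 in WT at 4 months. At 6 months they were 14.66 to 14.88 against 14.98 to 15.14, and at 8 months 14.47 to 14.58 against 14.71 to 14.97. Markers of neutrophils were lower in rTg4510 at 6 and 8 months for 4 of 5 genes. Over all ages their summed signal ran from 7.23 to 10.22 in rTg4510 and from 8.87 to 10.16 in WT. At 6 months the sums were 7.23 to 7.99 against 8.87 to 10.12, and at 8 months 7.63 to 8.94 against 9.78 to 10.16. The sums of the other cell types below are ranges over all 4 ages, and genotypes that overlap in them can be apart at 1 age. T lymphocytes are known for both Kcna3 and Kcnn4. Of 5 T-cell markers 2 were measured and neither passed at any age, with a summed signal of 3.65 to 6.25 in rTg4510 and 4.10 to 5.67 in WT. Cd3e, the T-cell receptor subunit, lay between 1.45 and 5.99 in rTg4510 and between 1.58 and 4.77 in WT. The summed markers of border macrophages were 9.87 to 10.58 against 10.18 to 11.03, with 1 of 5 lower at 6 months. For mural cells the sums were 5.34 to 7.52 against 6.45 to 8.35, with 2 of 4 genes lower at some age, and for astrocytes 7.35 to 9.25 against 8.23 to 11.09, with 2 of 5 lower and 1 higher. Endothelial sums were 6.67 to 8.56 against 6.67 to 8.70 (2 of 4 lower and 1 higher), monocyte sums 6.24 to 7.63 against 6.81 to 7.44 (3 of 3 lower at some age), and B-cell sums 4.15 to 6.09 against 4.71 to 6.92 (1 of 3 lower). Oligodendrocyte sums were 6.26 to 9.28 against 6.31 to 10.32, with none of 5 called, and sums of the 3 neuronal markers measured were 3.76 to 5.80 against 4.76 to 7.23, with 1 lower. The part of these cells in the values of the 7 genes was not tested. In bulk RNA, fewer cells of a type and less RNA per cell cannot be told apart.

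Of 96 further genes for potassium channels and their subunits, 40 were in the table. None was a DEG at 2 months, where 1.98% of all genes were. At 4 months 4 were higher and 1 lower, at 6 months 4 were higher and 5 lower, and at 8 months 5 were higher and 3 lower. Of all genes 13.8%, 19.8% and 15.9% were DEGs at these ages, and 9.47%, 11.3% and 10.5% were up-regulated. A total of 11 passed at 1 age or more, 5 higher and 6 lower, and 29 did not pass at any. These totals over 4 ages cannot be set against the shares of single ages. The median log2 fold change of the 40 genes was -0.14, -0.24, -0.34 and -0.20 at the 4 ages, against 0.01, -0.04, -0.04 and -0.01 over all genes. Some of the 40 had libraries at the lowest value of any gene, which was 1.23 to 1.92 in the 28 libraries. A gene that was not called was therefore not shown to be unchanged, and the medians include such low signals.

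Among the 6 other two-pore genes, 2 passed, in opposite directions. Kcnk12 encodes THIK-2, the nearest relative of Kcnk13. Its mean signal was 6.49 ± 0.273 in rTg4510 and 6.82 ± 0.252 in WT at 2 months (SD, n = 4), and 4.63 ± 0.289 and 6.29 ± 0.115 at 8 months (SD, n = 3). The Kcnk12 difference was -0.32 at 2 months (FDR = 0.372) and it was down-regulated by -0.92, -1.59 and -1.66 at 4, 6 and 8 months (FDR = 0.00144, 2.17e-07 and 1.23e-06). Kcnk9, the acid-sensitive leak channel TASK-3, was up-regulated by 2.67, 2.69 and 2.38 at those ages (FDR = 0.00132, 0.000193 and 0.00324), from a low WT signal of 1.89 to 4.83. The remaining 4 two-pore genes were not called at any age, and some of them had libraries at the lowest value of any gene.

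Of 7 other inward rectifiers, Kcnj9 and Kcnj10 were higher. Kcnj9 encodes a subunit of G-protein-gated channels, and its signal in rTg4510 was 7.16 ± 0.203 (SD, n = 4), 7.86 ± 0.342 (SD, n = 3), 8.72 ± 0.298 (SD, n = 4) and 8.81 ± 0.210 (SD, n = 3) at 2, 4, 6 and 8 months. The WT means of Kcnj9 stayed between 6.63 and 6.79, and the differences were 0.52, 1.23, 1.94 and 2.16 (FDR = 0.317, 0.00348, 3.13e-06 and 6.55e-06). Kcnj10, best known as the Kir4.1 channel of astrocytes, was up-regulated by 0.85, 1.41 and 0.97 at 4, 6 and 8 months (FDR = 0.00145, 3.9e-07 and 0.000344). Kcnj16, a partner subunit of Kcnj10, was lower by -1.30 at 8 months (FDR = 0.00633). Its rTg4510 mean was 6.59 at 2 months and 6.60 at 8 months, while the WT mean was 6.98 and 7.90 ± 0.682 (SD, n = 3). The 8-month difference thus went with a higher WT mean. In that WT group the summed astrocyte markers were 8.98 to 11.09, against 8.23 to 9.24 in rTg4510 of that age. The part of astrocyte RNA in the Kcnj16 values was not tested. Kcnj13, the Kir7.1 channel of epithelia, was lower by -0.89 at 6 months (FDR = 0.049) and is named after its value was seen. It overlaps Gigyf2, and the sources used here do not say whether strand was used to count reads.

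The voltage-gated list had 12 measured genes, of which 2 were lower at 6 months and none was a DEG at another age. Kcnd3, a relative of Kcnd1 that also gives A-type currents, was lower by -1.34 at 6 months (FDR = 0.026). Of 3 other calcium- or sodium-activated genes, Kcnn1, a channel of small conductance, was higher by 1.47 at 8 months (FDR = 0.0159). Auxiliary subunits numbered 11. Abcc9, the sulfonylurea receptor of ATP-sensitive channels, was higher by 0.67, 1.06 and 0.92 at 4, 6 and 8 months (FDR = 0.00362, 3.1e-06 and 0.000139), and its highest group mean was 4.91 ± 0.0619 (SD, n = 3) in rTg4510 at 8 months. Abcc9 overlaps the non-coding gene 5330439B14Rik. Kcnrg, a regulator of channel assembly, was lower by -1.24 and -1.23 at 6 and 8 months (FDR = 0.0156 and 0.0443) and overlaps Trim13 and Dleu2. The lysosomal channel gene Tmem175 was not called at any age.

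**Figure D3:**
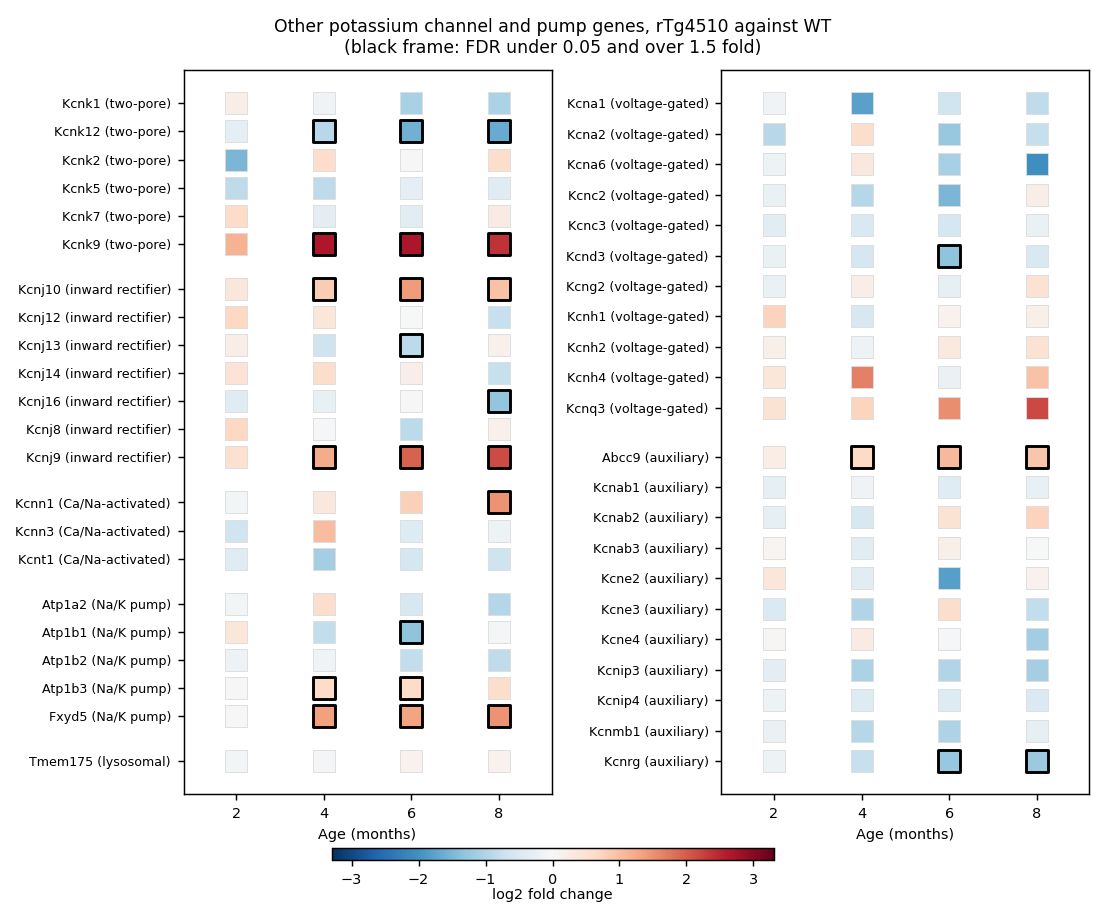
Log2 fold change of rTg4510 against WT, as colour, for measured genes of the other potassium channel families, their auxiliary subunits, the lysosomal channel and the sodium-potassium pump (rows) at 2, 4, 6 and 8 months (columns), with black frames for DEGs. Kcnk9 and Fxyd5 are framed in red at 4, 6 and 8 months and Kcnk12 in blue, while most rows of the voltage-gated and auxiliary families have no frame.

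The sodium-potassium pump builds the potassium gradient that these channels use. Fxyd5, a small pump regulator, was higher by 1.36, 1.34 and 1.48 at 4, 6 and 8 months (FDR = 1.06e-06, 8.42e-08 and 2.53e-07). Atp1b3, a beta subunit, was higher by 0.62 and 0.64 at 4 and 6 months (FDR = 4e-06 and 2.05e-07). Atp1b1, another beta subunit, was lower by -1.33 at 6 months and overlaps Nme7.

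Microglial potassium efflux is tied to purinergic receptors and to the processing of interleukin-1β, and 10 genes of this group were measured. Il1b was higher by 1.0, 1.78, 2.41 and 2.26 at 2, 4, 6 and 8 months (FDR = 0.011, 3.71e-05, 4.98e-08 and 1.41e-06), and its antisense gene Il1bos overlaps it. P2ry13, an ADP receptor gene that lies within Med12l, was lower by -0.83, -1.08 and -0.91 at 4, 6 and 8 months (FDR = 8.08e-06, 1.44e-08 and 1.91e-06). The other 8 genes were not called at any age. Among them P2ry12, the receptor that opens THIK-1, differed by -0.14, -0.18, -0.30 and -0.40, and Nlrp3 by 0.18, -0.09, 0.08 and 0.38.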

How the data were processed

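RNA-seq of CD11b-captured microglia gave 1 deposited table of log2 gene signals by Entrez ID for 32 libraries. The authors summed exon reads over runs, left out an exon where over 80% of samples had under 10 counts, summarised exons to genes with a robust linear model, took log2 and scaled medians. The labels name GRCm38, and the aligner and annotation are not given in the sources used here. Symbols came from the RefSeq table of GRCm38.p6, which held 17828 of the 18588 IDs (95.9%). A linear model with 8 genotype by age means was fitted per gene on the 28 libraries that the authors kept (limma 3.58.1, R 4.3.3, unmoderated variance, 20 residual degrees of freedom), and p-values were adjusted by Benjamini-Hochberg over all genes in each of 11 contrasts. The fit was tested on simulated data. The table gives no read totals (the methods of the study name 1 approximate depth for all samples), and precision rests on the replicate libraries. Each is a pool of animals, and p-values measure the spread between pools. Same-numbered libraries of an age deviated together at 6 months (r = 0.131 to 0.153) and 8 months (r = 0.15 to 0.291). Pairs of different numbers lay lower at these ages (r = -0.127 to 0.0913 and -0.259 to -0.0281). At 2 months the same-numbered pairs were all positive (r = 0.0649 to 0.167), with a small overlap with pairs of different numbers (r = -0.194 to 0.0816). At 4 months the same-numbered pairs (r = -0.0999 to 0.124) did not stand above the others (r = -0.0709 to 0.154). The main model has no term for these numbers. By name were given all 7 genes, the 3 protein-coding genes most like each, and of each channel list at most 3 genes called at 1 age or more, ranked by size, with any further ones said to be named after their values were seen. Some genes of these lists count in the totals but are not reported here by name or drawn. The genes and lists were chosen with earlier results of these data known. Alternatives were moderated variance, all 32 libraries, quantile normalization, genes above the 25th percentile of mean signal, 8 linear units added before log2, a replicate block, only the 2 groups compared, and each library left out.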

Additional observations from a re-analysis of the deposited data

Results flagged for a closer look

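In 3 of the 28 groups of 4 libraries 1 library lay apart from the others by the test of Dixon, which chance gives in about 1 of 20 groups. Kcnj2 in WT replicate 3 of 6 months was 6.58, with the next library at 7.68, a gap of 0.917 of the range of the group, and without that library the 6-month difference was 1.39 ± 0.114 (SE, FDR = 8.59e-09). Kcnd1 in WT replicate 4 of 6 months was 7.75, with the next at 7.95 (0.931 of the range), and without it the difference was -0.54 ± 0.121 (SE, FDR = 0.00163). Kcnk13 in rTg4510 replicate 2 of 2 months was 6.83, with the next at 7.03 (0.865 of the range), and without it the difference was 0.05 ± 0.0722 (SE, FDR = 0.84). The genotype difference of 2 genes changed between 2 and 4 months among 21 tests of consecutive ages, by 1.5 for Kcnj2 and 1.04 for Kcnn4.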

How the results depend on the processing

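No called difference of the 7 genes changed sign under any alternative run. Of 77 gene and contrast pairs, all kept their side of the threshold with moderated variance and 76 with quantile normalization. Kcnn4 was removed by the filter at the 25th percentile, and the other 66 pairs kept their calls. With all 32 libraries uncalled values turned sign for the step from 4 to 6 months of Kcnd1 (0.20) and Kcnk6 (0.14), the step from 6 to 8 months of Kcnj2 (0.01), the WT change from 2 to 8 months of Kcnj2 (-0.09), Kcnma1 (0.04) and Kcnn4 (0.14), and the rTg4510 change from 2 to 4 months of Kcnk6 (0.05). The number of DEGs among the 7 genes fell from 1 to 0 at 2 months with all 32 libraries, and from 2 to 1 for the step from 2 to 4 months with all 32 libraries or the filter. It fell from 2 to 1 for rTg4510 from 2 to 4 months with the filter, 8 added units or only 2 groups, and from 3 to 1 at 4 months with only 2 groups. With 8 added units Kcnn4 lost its calls at 6 months (0.51, a count of 2 in place of 3) and in the mean over ages (0.39), and with all 32 libraries in the mean over ages (0.57), while Kcna3 gained one for rTg4510 from 2 to 4 months (0.93, FDR = 0.0193). Leaving out 1 library gave counts of 0 to 1 at 2 months, 1 to 2 for the step from 2 to 4 months and 1 to 2 for rTg4510 from 2 to 4 months. Uncalled values turned sign when 1 library was left out and ranged from -0.01 to 0.22 for Kcnn4 and -0.04 to 0.05 for Kcnk13 at 2 months, -0.01 to 0.14 for Kcnk13 at 4 months and -0.14 to 0.04 for Kcnk6 at 8 months. For the step from 4 to 6 months they ranged from -0.06 to 0.07 (Kcnk6) and -0.08 to 0.05 (Kcnd1), for the step from 6 to 8 months from -0.33 to 0.09 (Kcna3), -0.04 to 0.09 (Kcnma1) and -0.29 to 0.13 (Kcnj2), and for WT from 2 to 8 months from -0.22 to 0.08 (Kcnn4). The mean Kcnn4 difference over ages lost its call in 11 of 28 such fits, at 0.52 to 0.58. With same-numbered libraries of an age taken as pairs (the replicate block), Kcna3 was called at 2 months (FDR = 0.00413) and Kcnj2 was not (FDR = 0.0752). These pairs ran together at 2 months, though their range overlapped that of differently numbered libraries. With the number as a block over all groups Kcna3 was called for rTg4510 from 2 to 4 months (0.77, FDR = 0.0221). The block changed no other call of the 7 genes. The cause of these changes was not tested. The table holds no read counts, so no detection limit is given for Kcnn4, whose signal was low. The lowest value of any gene was 1.23 to 1.92 in the 28 libraries, and Kcnn4 in WT ran from 2.90 to 3.92.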

Other observations

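Beside potassium channels, 26 genes for other ion channels of microglia were measured, of which 6 were higher in rTg4510 at 1 age or more and none was lower. That total over 4 ages has no share of all genes beside it. By age, 0, 2, 4 and 5 of the 26 were higher at 2, 4, 6 and 8 months. Of all genes 1.58%, 9.47%, 11.3% and 10.5% were up-regulated at the same ages. P2rx4, an ATP-gated cation channel of activated microglia, was higher by 0.83, 1.11 and 1.09 at 4, 6 and 8 months (FDR = 3.27e-07, 3.32e-10 and 7.12e-09), and it overlaps Camkk2. Clic4, an intracellular chloride channel protein, was higher by 1.01, 1.21 and 1.01 at these ages (FDR = 0.000159, 1.64e-06 and 0.000138). Lrrc8d, a subunit of the volume-regulated anion channel, was higher by 0.73 and 0.88 at 6 and 8 months (FDR = 7.81e-06 and 5.65e-06), and it overlaps the pseudogene Rps15a-ps5. The remaining 3, named after their values were seen, were Hvcn1, the voltage-gated proton channel, at 0.85 at 8 months (FDR = 4.77e-07), Lrrc8c at 0.69 at 6 months (FDR = 0.0261) and Orai3 at 0.60 at 8 months (FDR = 0.00219). Hvcn1 overlaps Tctn1. P2rx7, the ATP receptor linked to interleukin-1β release, differed by 0.00, -0.15, -0.16 and -0.08 at the 4 ages and was not called at any. The median difference over the 26 genes was 0.01, -0.01, 0.10 and 0.09.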
